A study of Mus musculus with 2148 samples.

Results

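The genes described are the replication-dependent histone genes of mouse thymic epithelial cells, chosen by symbol: every gene of the count table whose symbol starts with Hist1h, Hist2h, Hist3h or Hist4h. The rule found 65 of 48437 genes, and 5 further genes annotated under such symbols were not analysed here. The 65 genes comprised 6 linker histone (H1), 18 H2A, 18 H2B, 10 H3 and 13 H4 genes. In GRCm38, 56 lay on chromosome 13, of which 55 between bases 21715763 and 23934851, 5 on chromosome 3 between 96219865 and 96263311, 3 on chromosome 11 and 1 on chromosome 6. The annotation called 62 of them protein coding and 3 pseudogenes.

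Histones package DNA: pairs of H2A, H2B, H3 and H4 form the core around which DNA is wound, and H1 binds the linker between cores. Most of this protein is made while DNA is copied, from clustered genes without introns whose mRNAs end in a conserved stem-loop in place of a poly(A) tail. The stem-loop binding protein SLBP holds this end during processing, translation and the rapid decay of the mRNA when replication stops. In the thymus, epithelial cells of the medulla (mTEC) and cortex (cTEC) teach T cells tolerance, and immature mTEC divide before they switch on Aire, the regulator of tissue-specific genes.

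Single cells had been sequenced by RamDA-seq, a full-length total RNA method that primes with both oligo(dT) and random-type primers and so can read RNA without a poly(A) tail. The cells were epithelial cells of C57BL/6 mice, sorted as mTEChi (Ly51-, MHCII-high), mTEClo (Ly51-, MHCII-low) or cTEC (Ly51+). They formed 8 groups: WT adult mTEChi (4 to 6 weeks), WT adult mTEClo (4 to 8 weeks), WT adult cTEC (6 weeks), mTEChi and mTEClo of adult Aire-KO males (5 weeks, on a C57BL/6 background), and WT neonate mTEChi, mTEClo and cTEC (1 day old, sex unknown), here called newborn. Adult WT cells came from males apart from 1 female mTEChi set. Cells of a group with the same age and sex labels were summed to 1 mouse pool, giving 13 pools, 11 of them mTEC; how many animals each held is not given in the labels, so the spread between pools may be partly technical. Adult WT mTEChi had 4 pools (4 weeks female, 82 cells; 4 weeks male, the largest; 5 weeks, 12 cells; 6 weeks, 82 cells) and adult WT mTEClo 3 (4 weeks, 66 cells; 5 weeks, 74 cells; 8 weeks), while every other group was 1 pool of at least 77 cells. The 3 newborn sorts came from the same 5 experimental batches, and no other 2 groups shared a batch. Within adult WT mTEChi, all 12 cells of the 5-week pool and 5 cells of the 6-week pool came from the same batch, so these pools are not fully separate.

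Each cell had 203010 to 1823784 reads on genes (median 692880). Aire, the targeted gene, stood at 1109.7 to 1844.6 reads per 1e6 reads on genes (CPM) in the 4 adult WT mTEChi pools and at 26.1 CPM in Aire-KO mTEChi, and at 26.1 to 39.5 CPM in the 3 adult WT mTEClo pools against 0.153 CPM in Aire-KO mTEClo. Both differences followed the labels, although with 1 pool per Aire-KO group neither passed the test across all genes (log2 fold -5.69, SE 0.57, adjusted p = 0.239 in mTEChi, and -7.79, adjusted p = 0.0632 in mTEClo, edgeR). Markers of other cell types differed between pools in ways that touch the results below. The summed level of the 5 cTEC markers (Psmb11, Enpep, Ly75, Prss16, Cxcl12) was 5580 and 5391 CPM in the adult and newborn cTEC pools, 94.0 to 393.7 CPM in adult WT mTEClo and 2310 CPM in newborn mTEClo. The 4 tuft cell markers (Trpm5, Dclk1, Avil, Pou2f3) summed to 4638 and 4179 CPM in the 4-week and 5-week adult WT mTEClo pools, 1250.3 CPM in Aire-KO mTEClo and at most 526.4 CPM in the other 10 pools.

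The end of the message sets how these genes are processed, so the stem-loops of the genes most discussed below are shown, 5′ to 3′ as DNA from the GENCODE M21 transcripts (GRCm38), with the 16 bases of the stem-loop in capitals.
Hist1h1c: aaaGGCTCTTTTCAGAGCCaccactc
Hist1h1d: aacGGCTCTTTTCAGAGCCacccaca
Hist1h2ab: aaaGGCTCTTTTCAGAGCCacccaca
Hist1h2bm: aaaGGCTCTTTTCAGAGCCactaagc
Hist1h3c: aaaGGCTCTTTTAAGAGCCacctaag
Hist3h2a: aaaGGCTCTTTTCAGAGCCacccaca
Hist1h4d: aaaGGCCCTTTTCAGGGCCactacct
Hist4h4: aaaGGCCCTTTTCAGGGCCcacaaag

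The stem-loop was found in annotated transcripts of 41 of the 65 genes and in 63 of 55450 genes in all (0.1136%). It had 7 distinct sequences over the 41 genes. All 10 H4 genes with one had the stem seen above in Hist1h4d and Hist4h4, and the other 31, of H1, H2A, H2B and H3, had that of Hist1h1c. In 21 genes the annotated transcript ended within 150 bases of it, the form of a processed histone mRNA. In 20 genes the transcript ran on, by up to 4884 bases, and 11 of these had the polyadenylation signal AATAAA in that stretch, against 1 of the 21. The last 24 genes had no stem-loop in the annotated transcript, among them Hist1h1a and Hist1h1b. Because the copies are so alike, only a median of 50.5% of a gene's 50-base exon windows (range 2.7% to 100%) was unique among transcripts. Reads that match several places equally had been removed, so levels of the near-identical H2A, H2B, H3 and H4 copies are uncertain; the 15 genes with under 20% unique windows held 2.15% of the histone reads.

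Promoters are shown for 3 genes chosen after their values were seen: Hist1h1b, the gene with the largest ratio in cycling cells, and Hist2h2ac and Hist1h2ac, each of which shares its promoter region with an H2B gene on the other strand that behaved differently (Hist2h2be and Hist1h2bc). They run 5′ to 3′ along the named gene, from RefSeq on GRCm38.p6, with 3 motifs in capitals where either strand holds them, namely CCAAT, the TATA box written as TATAAA, and the octamer given as ATTTGCAT. Hist1h1b lies at chr13:21780576-21780875 on the minus strand, Hist2h2ac at chr3:96220831-96221130 on the minus strand and Hist1h2ac at chr13:23683910-23684209 on the minus strand.
Hist1h1b: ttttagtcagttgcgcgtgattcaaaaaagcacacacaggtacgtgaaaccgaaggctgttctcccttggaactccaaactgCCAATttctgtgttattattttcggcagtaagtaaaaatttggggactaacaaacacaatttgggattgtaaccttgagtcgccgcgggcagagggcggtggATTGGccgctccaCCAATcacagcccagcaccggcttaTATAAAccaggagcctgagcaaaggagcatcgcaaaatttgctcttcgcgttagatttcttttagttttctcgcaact
Hist2h2ac: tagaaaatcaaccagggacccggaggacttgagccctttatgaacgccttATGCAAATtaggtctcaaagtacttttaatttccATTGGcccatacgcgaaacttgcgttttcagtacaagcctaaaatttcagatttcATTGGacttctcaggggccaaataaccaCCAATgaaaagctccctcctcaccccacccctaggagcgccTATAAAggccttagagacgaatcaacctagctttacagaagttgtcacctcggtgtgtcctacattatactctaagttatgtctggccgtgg
Hist1h2ac: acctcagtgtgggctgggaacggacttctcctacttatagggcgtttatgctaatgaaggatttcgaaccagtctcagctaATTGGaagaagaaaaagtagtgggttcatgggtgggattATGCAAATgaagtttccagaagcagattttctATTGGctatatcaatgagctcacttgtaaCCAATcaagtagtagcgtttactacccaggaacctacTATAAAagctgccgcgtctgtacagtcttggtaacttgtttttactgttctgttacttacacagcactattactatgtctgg

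RefSeq promoter windows of 300 bases, most of them upstream of the start, were matched for 57 of the 65 genes. CCAAT, the letters bound by factors such as NF-Y, was present in 84.2% of them against 41.06% of all 27025 genes with a promoter. It was in every matched H1, H2A, H2B and H3 promoter and in 3 of 12 H4 promoters. TATAAA was present in 59.6% against 15.67%. The octamer, the letters read by Oct1 (Pou2f1) in H2B promoters, was present in 22.8% against 1.97%, and in 7 of 16 H2A and 6 of 15 H2B promoters but in no H1, H3 or H4 promoter.

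Together the 65 genes held 378020 of 1424841034 reads, or 0.0265%, and every cell had at least 3 of them. The 10 genes with the most reads held 76.3% of them, and 10 genes had under 100 reads. Per length, as CPM per kb of exon averaged over the 8 groups, the highest were the linker histone H1.2 gene Hist1h1c (38.6), the H2B gene Hist1h2bc (24.9), Hist1h1b (H1.5, 23.2), Hist1h1a (H1.1, 15.2), the H4 gene Hist1h4d (10.8) and the H2B gene Hist1h2bj (10.3). The highest H2A genes were Hist3h2a (7.14), Hist1h2ab (4.68), Hist1h2ak (3.55) and Hist2h2ac (3.03). Among H3 genes Hist1h3a (5.17), Hist2h3c2 (3.69), Hist1h3c (2.48) and Hist1h3e (2.09) led, and among H4 genes Hist4h4 (5.68), Hist1h4i (4.16) and Hist1h4h (3.45) followed Hist1h4d. The remaining named genes were Hist1h2bn (7.08), Hist2h2be (6.71) and Hist1h1e (H1.4, 5.79).

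**Figure D1:**
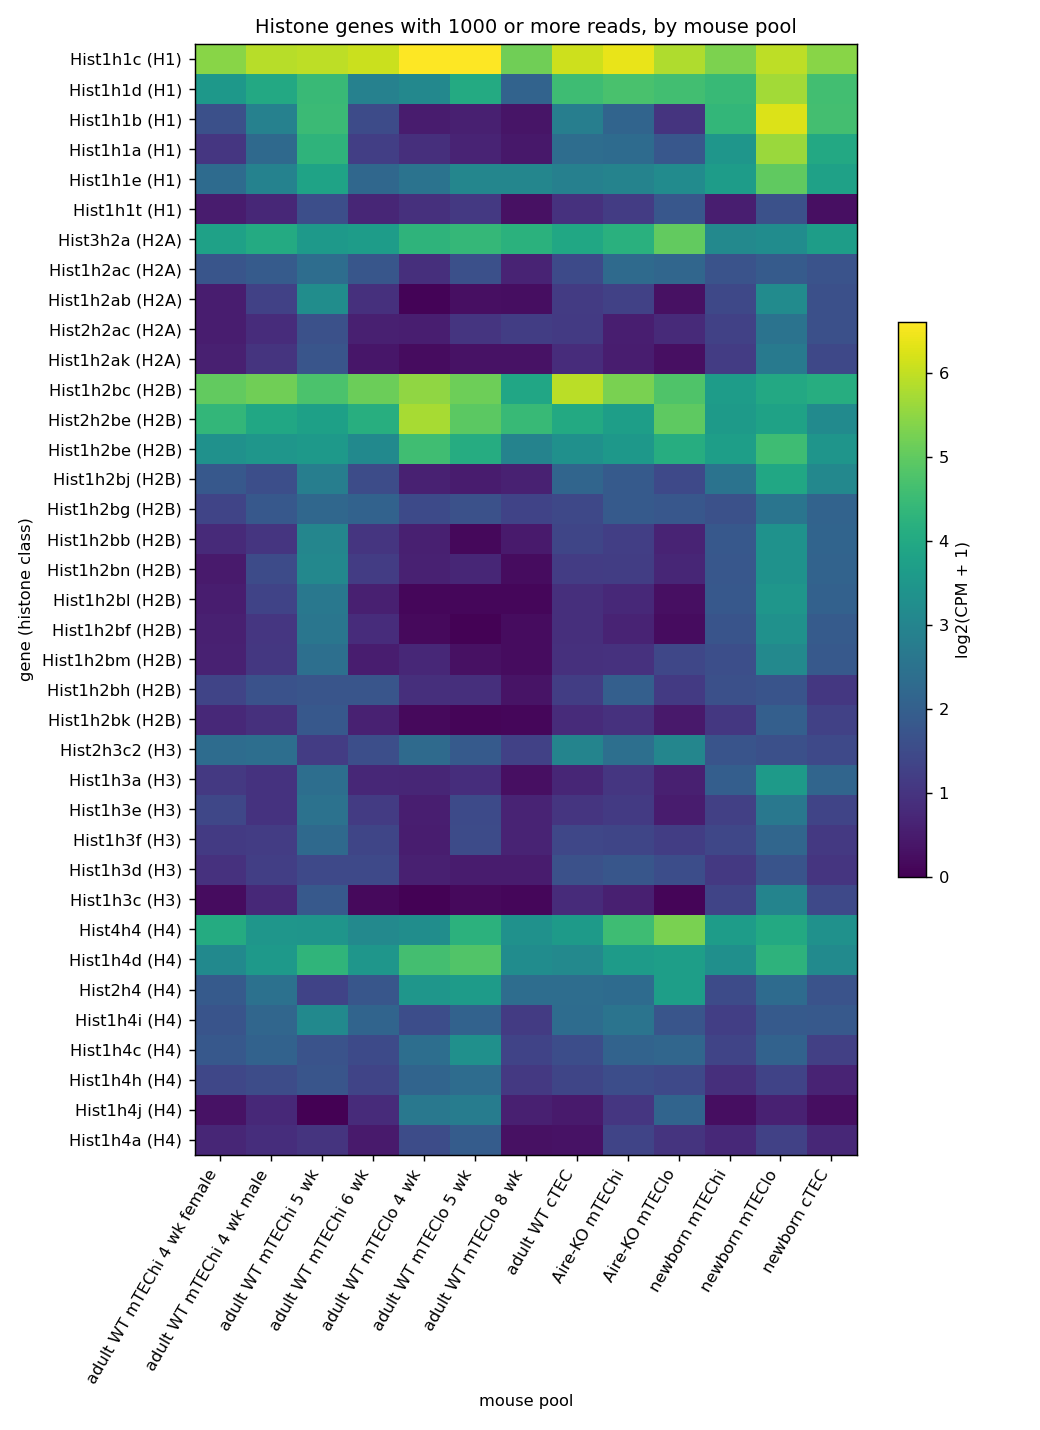
Heat map of log2(CPM + 1) for the 37 histone genes with 1000 or more reads (rows, by histone class) in the 13 mouse pools (columns). Hist1h1c and Hist1h2bc were high in every pool, whereas Hist1h1b and Hist1h1a were high in newborn pools, above all newborn mTEClo (75.7 and 47.9 CPM), and low in adult mTEClo.

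To ask how these genes behave in dividing cells, each cell was scored for 40 S phase and 52 G2/M genes, none of them a histone gene of the list, and each score was set on a robust z scale over all cells. A cell was called S if its S z reached 3 and was at least its G2M z, G2M if its G2M z reached 3 and was the higher, and non-cycling if both were under 3. This gave 89 S and 120 G2M cells and left 89.4% of the cells as non-cycling, and 87 cells had their higher z between 2 and 4, near the cut. The classes are cut from scores of the same cells, so what follows is described with no test.

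Cells called S did not carry more histone reads in every pool. In the 5 pools with at least 5 S cells, the share of reads on histone genes in S cells over that in non-cycling cells was 0.747 in WT mTEChi of 4-week males (7 S cells), 1.09 in Aire-KO mTEChi (9 cells), 3.38 in newborn mTEChi (6), 2.41 in newborn mTEClo (34) and 2.27 in newborn cTEC (29), with a median of 2.27. The 3 newborn pools were thus above 2 and the 2 adult pools near or under 1. Gene by gene (CPM with 1 CPM added), Hist1h1b was the 1 gene at 2-fold or more in S cells of all 5 pools among the 21 histone genes above 1 CPM in non-cycling cells, against 0.951% of all genes with that floor, which was chosen after seeing the data. With genes above 1 CPM in either class there were 2 of 39, against 1.03% of all genes; the second, the H2B gene Hist1h2bm, passed only through its level in S cells (mean 5.15 CPM, 0.493 in non-cycling cells). Among the 16 genes with 5 CPM or more in S cells, the highest median ratios belonged to Hist1h1a (11.2), Hist1h1b (9.30), the H2B gene Hist1h2bl (4.37), Hist1h3a (3.58) and Hist1h2bm (3.43), and the lowest to Hist1h2bc (0.365), Hist3h2a (0.681), Hist2h2be (0.994), Hist1h1c (1.11) and Hist4h4 (1.20).

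The histone share also differed along the G2M score. Over all pools it was 0.0216% of reads in non-cycling cells (median cell 0.0144%, highest 0.343%), 0.0191% in the 34 cells with the S score alone over the cut, 0.0419% in the 55 cells with both scores over it and S the higher, 0.102% in the 79 cells with both over it and G2M the higher (median cell 0.0991%), and 0.0514% in the 41 cells with G2M alone. These pooled values mix pools whose non-cycling cells differ. Within newborn mTEClo, cells with S alone were at 0.0163% (20 cells) against 0.0166% in non-cycling cells, and within newborn cTEC at 0.0158% (8 cells) against 0.0128%. Among the cells with an S z of 7 or more, 31 with a G2M z under 7 had 0.0217%, 21 with a G2M z of 7 to 9 had 0.0605%, and 33 with a G2M z of 9 or more had 0.165%, with the lowest of those 33 cells at 0.0669%. In newborn mTEClo the first of these bins was at 0.0270% (9 cells) and in newborn cTEC at 0.0232% (11 cells), above the non-cycling cells of the same pools. Over the cells past either cut (89 S and 120 G2M), the rank correlation of a cell's histone share was 0.56 with the G2M z, 0.21 with the S z and 0.08 with depth; these cells come from 10 pools and their scores and shares from the same libraries. The number of different histone genes seen, after thinning each cell to 200000 reads, had a median of 9 in non-cycling cells, 12 with S alone, 17 with both and S the higher, 34 with both and G2M the higher, and 16 with G2M alone (15, 20.5, 29, 47 and 27 without thinning).

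**Figure D2:**
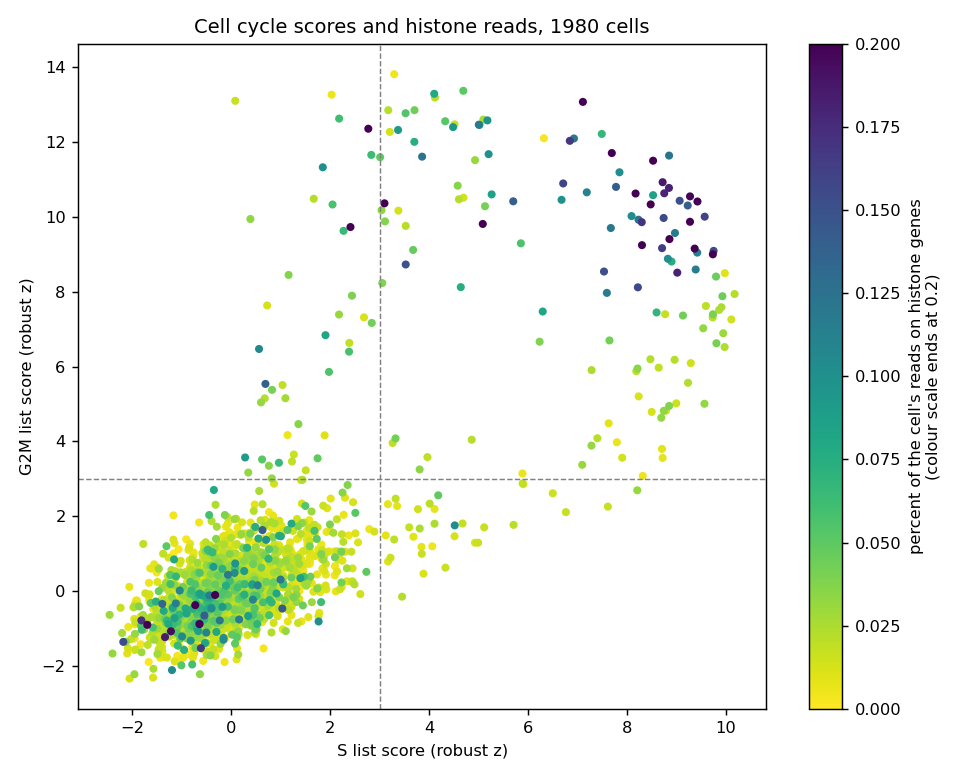
Each point is 1 cell, placed by its S list score (x) and G2M list score (y), both robust z, and coloured by the percent of its reads on histone genes, with the colour scale ending at 0.2 and dashed lines at the cut of 3. Dark points gather where both scores are high (79 cells with G2M the higher had 0.102%), and cells high in the S score only are pale (34 cells, 0.0191%).

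The 55 and 79 cells with both scores over the cut, a class set after these values were seen, were therefore compared with non-cycling cells in the same 5 pools. Their histone share was 0.0566% against 0.0191% in WT mTEChi of 4-week males (29 cells), 0.0836% against 0.0264% in Aire-KO mTEChi (14), 0.0693% against 0.0133% in newborn mTEChi (17), 0.137% against 0.0166% in newborn mTEClo (34) and 0.0554% against 0.0128% in newborn cTEC (31). The ratios were 2.96, 3.17, 5.20, 8.27 and 4.34. Every pool was higher, with adult pools at about 3-fold and newborn mTEClo the highest of the 5. Within experimental batches holding at least 5 such cells, all 11 were higher than the non-cycling cells of the batch (1.27 to 10.6-fold), and 9 were at 2-fold or more. Without cells that had 50 CPM or more of 10 thymocyte markers, the median ratio was 4.17 against 4.34.

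Of the 21 histone genes above 1 CPM in non-cycling cells, 11 were at 2-fold or more in all 5 pools, against 1.59% of all genes with that floor, and their median ratio was 2.57 against 0.909 for all genes. They were 4 of the H1 genes (Hist1h1a, Hist1h1b, Hist1h1d and Hist1h1e), the H2B genes Hist1h2be, Hist1h2bg, Hist1h2bh and Hist1h2bj, the H3 gene Hist1h3a and the H4 genes Hist1h4d and Hist1h4i. None of the 21 was 2-fold lower in all 5. A floor of 1 CPM in either class let in 27 more genes, which passed only through the cycling cells. Of the resulting 48, 30 were at 2-fold or more in all 5 pools and none was 2-fold lower in all 5 (1.8% and 0.877% of all 21903 genes). As 19 of the 30 passed only because they were high in cycling cells, these counts are given as a description. Leaving out any 1 pool gave 30 or 31 genes, and cuts of 2 and 4 gave 27 and 32, with the same floor.

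Linker histone genes spanned the widest range. Hist1h1b differed most: its level in non-cycling cells was 1.08, 1.44, 2.38, 6.27 and 2.07 CPM in the 5 pools, in the order above, and in cells with both scores it was 68.1, 54.9, 129.3, 240.8 and 87.9 CPM. The median ratio was 33.2 (22.97 to 38.5), and the highest non-cycling pool lay far below the lowest cycling pool. Hist1h1a went from 1.25 to 2.63 CPM in non-cycling cells to 32.6 to 159.3 CPM, with a median ratio of 25.0 (10.9 to 45.6). Hist1h1e (6.91) and Hist1h1d (H1.3, 5.38) followed, both at 2-fold or more in all 5 pools. Hist1h1c, the most abundant of the family in non-cycling cells (27.2 to 83.1 CPM), was at 40.6 to 131.1 CPM in cycling cells, a median ratio of 1.61 that ran from 0.745 in WT mTEChi of 4-week males to 3.85 in newborn mTEClo. H1 reads as a share of all histone reads were 38.0% in non-cycling cells and 49.5% in cells with both scores and G2M the higher.

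Many core histone genes of the Hist1 cluster were several-fold higher. Among H2B genes, the median ratios were 9.46 for Hist1h2bl (4.67 to 21.4), 7.90 for Hist1h2bn, 6.55 for Hist1h2bm and 5.03 for Hist1h2bj. The H3 gene Hist1h3c reached 7.86 (5.90 to 16.3), from 0.0815 to 0.479 CPM in non-cycling cells to 6.33 to 23.04 CPM. Among H2A genes Hist1h2ab was at 7.51, and among H4 genes Hist1h4d was at 3.51 (3.40 to 7.65). Each of these was 2-fold or more in all 5 pools, but apart from Hist1h2bj (2.56 CPM) and Hist1h4d (6.93 CPM) they were under 1 CPM in non-cycling cells on average.

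Hist1h2bc was lower in dividing cells, and some other genes changed little or differed between pools. Hist1h2bc, at chromosome 13, bases 23684199 to 23692908, was at 35.2, 39.0, 12.2, 17.0 and 15.8 CPM in non-cycling cells and at 14.3, 22.05, 5.81, 12.6 and 14.5 CPM in cells with both scores. It was lower in all 5 pools, with a median ratio of 0.576 (0.423 to 0.922). Hist3h2a (1.34, from 0.613 to 1.58) and Hist2h2be (1.53, from 0.966 to 2.99), an H2B gene described in olfactory neurons, changed little or unevenly. Hist4h4 (2.02, from 1.23 to 2.79) was higher in all 5 pools. None of these was at 2-fold or more in all pools. The testis linker histone gene Hist1h1t had a median of 1.06 but ran from 0.983 to 6.09, with 6.84 against 0.287 CPM in newborn mTEClo and 4.54 against 1.02 CPM in Aire-KO mTEChi. Apart from Hist1h1t, these genes and Hist1h1c were among the best expressed in non-cycling cells. There Hist1h1c, Hist1h2bc, Hist3h2a, Hist4h4 and Hist2h2be averaged 46.6, 23.8, 12.1, 11.3 and 10.7 CPM over the 5 pools.

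**Figure D3:**
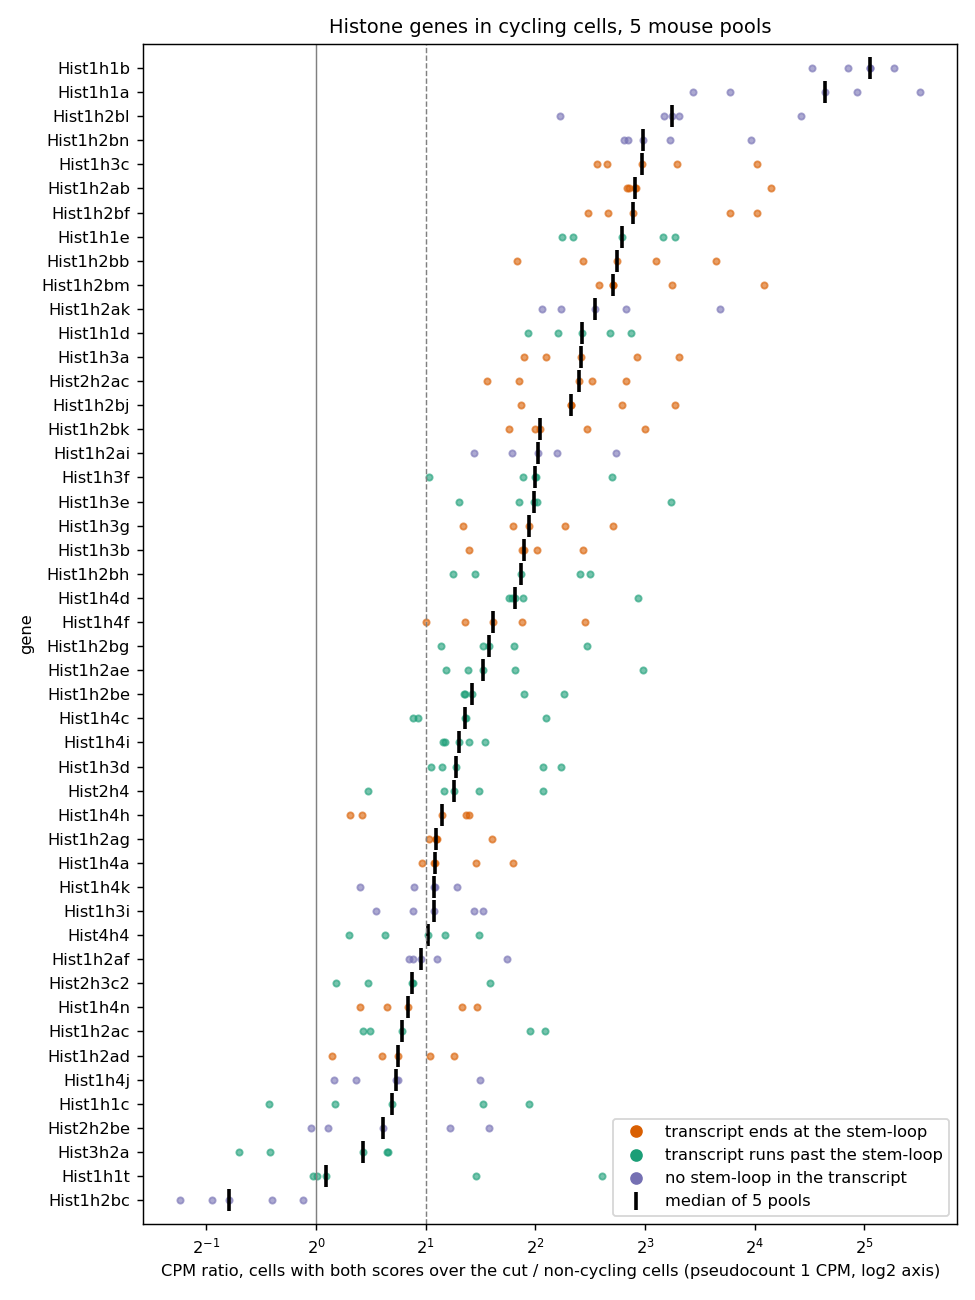
For each of 48 histone genes (rows), points give the CPM ratio of cells with both scores over the cut to non-cycling cells in 5 mouse pools (log2 axis, 1 CPM added), the black bar the median, and the colour whether the annotated transcript ends within 150 bases of the stem-loop (in the legend, at the stem-loop). Hist1h1b and Hist1h1a sit highest (medians 33.2 and 25.0) and Hist1h2bc lowest (0.576), left of 1 in all 5 pools.

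Genes were also grouped by their annotated end. The 21 genes whose transcript ends within 150 bases of the stem-loop held 7.49% of histone reads, with a median non-cycling level of 0.327 CPM. Only 3 of them were above 1 CPM in non-cycling cells, of which 2 were at 2-fold or more in all pools. The 20 genes whose transcript runs further past it held 65.02% of the reads, at a median non-cycling level of 2.76 CPM and 14 genes above 1 CPM there, of which 7 were at 2-fold or more in all pools, with a median ratio of 2.52. The 24 genes with no annotated stem-loop held 27.5%, and 2 of the 4 above 1 CPM in non-cycling cells were at 2-fold or more in all pools, Hist1h1a and Hist1h1b. With 3 and 4 genes in 2 of the groups, no order between them is read. Longer transcripts give more reads at the same number of molecules, and this was not separated from the ends here.

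Genes that share a promoter region did not always share the change. There were 15 head-to-head pairs with starts under 1000 bases apart. At the promoter printed for Hist2h2ac, that gene had a ratio of 5.27 and Hist2h2be on the other side 1.53. At the Hist1h2ac promoter, Hist1h2ac was at 1.72 and Hist1h2bc at 0.576. The pair Hist1h2bf and Hist1h2ad was at 7.42 and 1.68, with 34.2% and 32.9% unique windows. These pairs were picked out after their values were seen.

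Genes that serve histone supply were compared in the same cells. Of a list of 24 (transcription, 3′ processing, decay and assembly), 7 were at 2-fold or more in all 5 pools, against 1.8% of all genes. Slbp, Nasp and Casp8ap2 belong to the usual S gene list and were moved from the S score to this list. Their high levels in cells chosen by the rest of that list are thus not independent of the choice. The 7 were Slbp (median ratio 3.33), the 3′ processing and transcription factor Casp8ap2 (2.38), the 3′ exonuclease Eri1 (2.84), the chaperones Nasp (4.12), Asf1b (17.7) and Chaf1a (9.66), and Hat1 (2.96), which acetylates new H4. Of these, 6, all but Eri1, were also at 2-fold or more in the S class of all 5 pools, against 1.03% of all genes. There Slbp was at 3.68 and Asf1b at 17.5. Npat, the coactivator at histone loci, was at 2.43 (1.62 to 2.74). A further list held 11 histone genes taken here as replication-independent, which was not checked gene by gene. Cenpa, also a G2/M list gene, was left out here. Of the other 10, H2afx (6.58) and H1fx (5.59) were at 2-fold or more in all pools, beside the same 1.8% of all genes. H1fx was under 1 CPM in non-cycling cells (0.560 CPM). H3f3a (1.27) and H3f3b (1.28), which encode H3.3, were not at 2-fold or more in all pools.

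By group, the share of reads on histone genes was highest in newborn mTEClo. It was 0.0194%, 0.0237%, 0.0341% and 0.0207% in the adult WT mTEChi pools (4 weeks female and male, 5 weeks, 6 weeks), 0.0328%, 0.0326% and 0.0143% in adult WT mTEClo (4, 5 and 8 weeks) and 0.0274% in adult WT cTEC. Aire-KO mTEChi and mTEClo were at 0.0290% and 0.0302%, and newborn mTEChi, mTEClo and cTEC at 0.0216%, 0.0516% and 0.0241%. The adult and newborn values overlap apart from newborn mTEClo, which lies above every other pool. In its 5 experimental batches the share was 0.0324% to 0.0739%, so its lowest batch overlaps other pools.

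Non-cycling cells gave a different order. Their share was 0.0176% to 0.0196% in adult WT mTEChi and 0.0264% in Aire-KO mTEChi, 0.0229% in adult WT cTEC and 0.0305% in Aire-KO mTEClo. The newborn pools were at 0.0133% (mTEChi), 0.0166% (mTEClo) and 0.0128% (cTEC). Newborn mTEChi and cTEC were below every adult pool, and newborn mTEClo was below all but 8-week mTEClo (0.0143%). S cells made up 27.4% of newborn mTEClo, 20.9% of newborn cTEC and 3.51% of newborn mTEChi. In adult pools they were at most 2.66%, apart from 8.33% (1 of 12 cells) in 5-week mTEChi, and the 3 adult WT mTEClo pools held no S or G2M cell, which allows a share of up to 0.84% (counting error only).

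**Figure D4:**
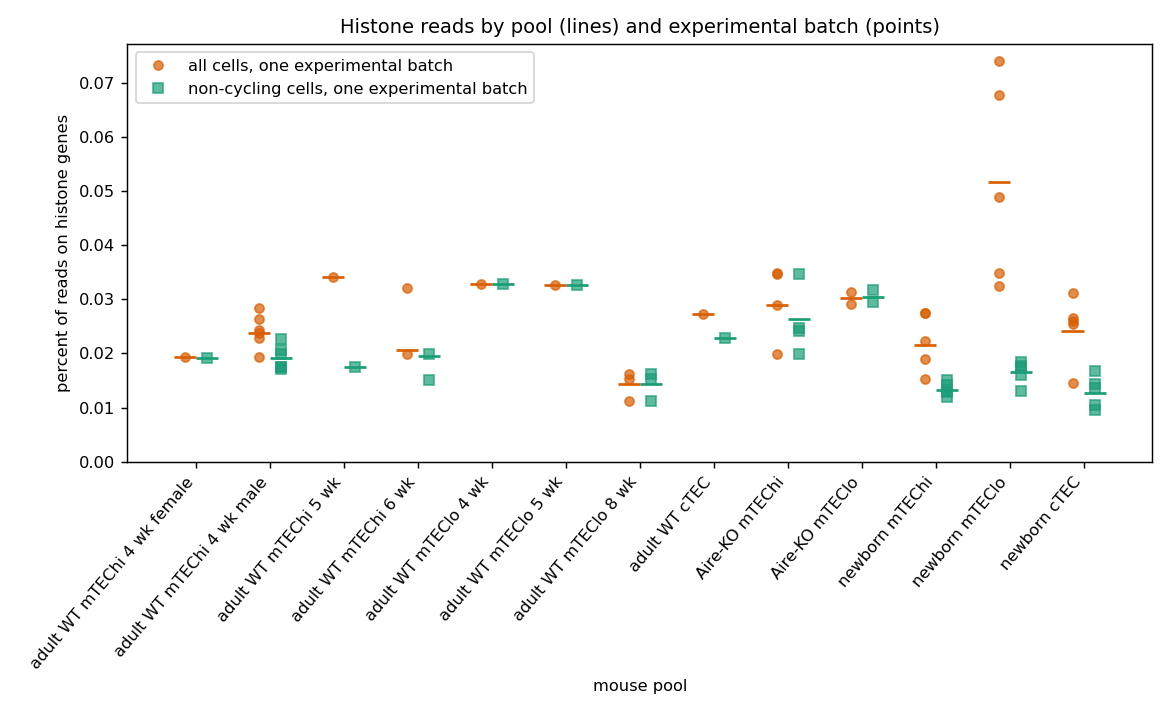
Percent of reads on histone genes in the 13 mouse pools (x), with points for experimental batches and lines for pools, in all cells (circles) and non-cycling cells (squares). Newborn mTEClo stands highest with all cells (0.0516%) and falls to 0.0166% in non-cycling cells, while adult WT mTEClo of 4 and 5 weeks stay at 0.0328% and 0.0326%.

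In adult WT mTEClo the share went with tuft cells. Cells with at least 3 of the 4 tuft markers at 10 CPM, a class also set after the values were seen, were 59.1%, 74.3% and 11.1% of the 4-, 5- and 8-week pools. Tuft-like and other non-cycling cells were at 0.0410% and 0.0227% in the 4-week pool, 0.0394% and 0.0173% in the 5-week pool, 0.0196% and 0.0138% in the 8-week pool and 0.0439% and 0.0261% in Aire-KO mTEClo. Tuft-like cells were higher in all 4 adult mTEClo pools and in newborn cTEC (0.0260% and 0.0117%). By less, they were also higher in WT mTEChi of 4-week males (0.0224% and 0.0189%), 6-week WT mTEChi (0.0226% and 0.0189%) and newborn mTEClo (0.0179% and 0.0162%). They were not higher in newborn mTEChi (0.0133% and 0.0133%) or adult cTEC (0.0190% and 0.0236%). The other pools held too few such cells for a value. In the 4- and 5-week pools Hist1h1c was at 125.5 and 117.4 CPM in tuft-like cells against 62.002 and 48.4 CPM in the others, Hist1h4d at 34.9 and 37.0 against 10.1 and 5.95 CPM, and Hist4h4 at 13.8 and 23.4 against 1.896 and 5.52 CPM. In the 8-week pool Hist4h4 went the other way (5.15 against 9.53 CPM).

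The comparison of sorts asks whether adult WT mTEChi and mTEClo differ. Tuft-like cells made up 59.1% and 74.3% of the 4-week and 5-week mTEClo pools, and their part in the differences was not tested. The mean histone share was 0.0245% ± 0.0067 (SD, n = 4 pools) in adult WT mTEChi and 0.0266% ± 0.0106 (SD, n = 3) in adult WT mTEClo, which do not differ beyond their spread (difference -0.00208, two-sided exact permutation test, p = 0.743). S cells were 2.48% ± 3.97 (SD, n = 4) against 0% (exact permutation p = 0.571). Cells with both scores were 4.94% ± 3.14 against 0% and all cycling cells 6.98% ± 3.35 against 0%, higher in 4 of 4 pools (exact permutation p = 0.0571 for each, the smallest that 4 pools against 3 can give). These measures and the histone share were among 6 such measures compared, with p-values not adjusted. In the test across all genes (edgeR quasi-likelihood, Benjamini-Hochberg adjusted p under 0.05 and at least 2-fold), 4 of the 61 histone genes that passed the filter on low counts were higher in mTEChi and 1 was lower, beside 7.54% and 4.13% of all 39971 genes, so neither share is above the background.

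The 4 genes higher in mTEChi were named after the count was seen. All were at 2-fold or more in the cells with both scores in all 5 pools, as were 30 of 48 histone genes. The WT mTEChi cells of 4-week males are in both comparisons. Hist1h2bl and Hist1h2bk (0.510 and 0.443 CPM in non-cycling cells) passed the floor only through the cycling cells. The overlap is thus no separate evidence. Hist1h1b was at 2.06, 6.47, 21.8 and 1.84 CPM in the 4 mTEChi pools and 0.426, 0.500 and 0.293 CPM in mTEClo (log2 fold 4.10, SE 0.98, adjusted p = 0.0328, edgeR). The groups did not overlap, and the 5-week mTEChi pool of 12 cells, 1 of them cycling, was the highest. Hist1h2bl, Hist1h2bj and Hist1h2bk rose by log2 4.27, 2.45 and 3.35. Hist2h2be was lower in mTEChi, at 19.8, 14.4, 12.6 and 16.7 CPM against 52.8, 30.0 and 20.8 CPM (log2 -1.28, SE 0.35, adjusted p = 0.0456). Hist1h1a (log2 3.21, adjusted p = 0.0818), Hist2h4 (-1.77, 0.0588), Hist1h4d (-0.89, 0.203) and Hist1h1d (0.45, 0.589) did not pass.

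These calls changed with the processing. With DESeq2's size factors in edgeR 5 genes were higher and none lower (background 8.15% and 3.47%), and without the filter 4 and none (6.05% and 2.85%). The DESeq2 Wald test called 20 and 3 (18% and 7.06%), and batches as units gave 28 and 1 (25.1% and 9.25%). In non-cycling cells none of 56 was called (8.46% and 3.52%). Leaving out the 4-week male mTEChi pool, or the 4-week or 5-week mTEClo pool, left no histone gene called. The background was then 2.79% to 3.71% higher and 1.91% to 2.51% lower. Leaving out the female or 6-week mTEChi pool left 2 higher (background 3.78% and 4.61% higher). Leaving out the 8-week mTEClo pool gave 0 higher and 3 lower (background 5.94% and 4.02%). The median of all genes in this comparison was 0.30 on the log2 scale (0.40 with DESeq2's size factors), and that of the histone genes 0.84.

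Many histone genes had higher levels in newborn than in adult mTEClo, but with 1 newborn pool no gene passed the test. Of 61 genes tested, 0 were called higher and 0 lower by edgeR (background 0% and 0%), and the median log2 fold was 2.18 against -0.00 over all genes. Hist1h1b was at 75.7 CPM in newborn mTEClo and 0.426, 0.500 and 0.293 CPM in the adult pools (log2 7.48, SE 1.24, adjusted p = 0.108, edgeR). Hist1h2bl was at 10.0 CPM against 0.0799 to 0.0852 CPM (log2 6.82, adjusted p = 0.158) and Hist1h3c at 6.88 CPM against 0.0213 to 0.133 CPM (log2 6.33, adjusted p = 0.259). For each of these the newborn pool lay above all 3 adult pools. Hist2h2be (13.1 CPM against 20.8 to 52.8, log2 -1.45, adjusted p = 0.463), Hist3h2a (8.32 against 17.7 to 20.1, -1.26, 0.423) and Hist2h4 (3.95 against 4.17 to 11.4, -1.16, 0.692) were below them.

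The DESeq2 Wald test called 17 histone genes higher and 1 (Hist3h2a) lower in newborn mTEClo, beside 2.07% and 2.54% of all genes, and with batches as units 35 were higher and 3 lower (6.2% and 7.81%), though newborn batches share 1 pool. Restricted to non-cycling cells, 0 of 56 were called (background 0% and 0%) and the median log2 fold was -0.27. Hist1h1b was then at 6.27 against 0.293 to 0.500 CPM (log2 3.88, adjusted p = 0.350, edgeR). Cycling cells made up 45.97% of newborn mTEClo and 0% of adult WT mTEClo, and cTEC markers were at 2310 against 94.0 to 393.7 CPM; the part of the latter in these differences was not tested.

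**Figure D5:**
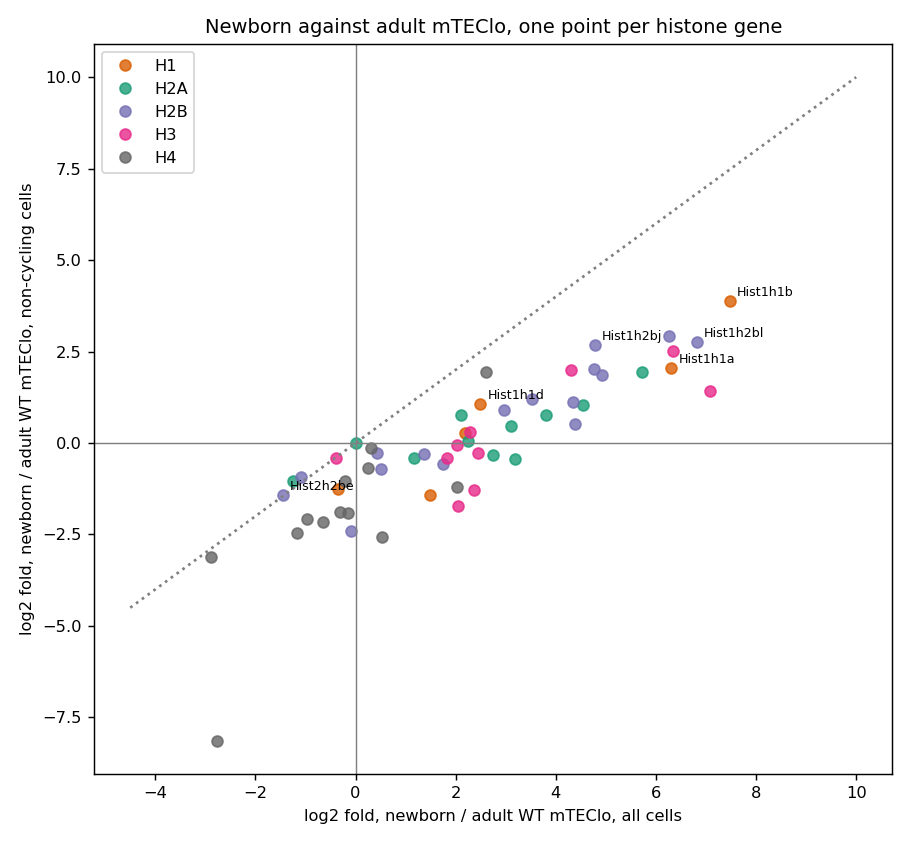
Log2 fold of newborn over adult WT mTEClo for 56 histone genes, from all cells (x) and from non-cycling cells (y), coloured by class, with the dotted line where both are equal. Of the 31 genes over 2 in all cells, 24 are under 2 in non-cycling cells, and 17 genes over 0 in all cells are under 0 in non-cycling cells.

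In mTEChi, none of 61 genes was called in either direction by edgeR (background 0% and 0%) or by the DESeq2 Wald test (0.0325% and 0.0726%). The median log2 fold was -0.32 against -0.05 for all genes. Hist1h1b was at 19.6 CPM against 1.84 to 21.8 CPM in the adult pools, within their range (log2 1.35, SE 1.10, adjusted p = 1, edgeR). Hist1h1e (11.5 CPM, log2 0.79) and Hist1h1a (10.0 CPM, 0.76) also lay within the adult range. Hist1h2bc was below all adult pools, at 11.7 CPM against 25.5 to 34.9 CPM (log2 -1.40, unadjusted p = 0.0374, adjusted p = 1, edgeR), as were Hist3h2a (7.63 against 10.9 to 15.5 CPM, -0.71) and Hist1h1c (38.9 against 42.5 to 66.3 CPM, -0.52). With batches as units Hist1h2bc and Hist1h4i were called lower (background 0.539%). Hist1h2bc stayed low in non-cycling cells, at 12.2 against 28.5 to 35.2 CPM.

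The cTEC pools, 1 of each age and so without a test, showed the same genes at the extremes. The newborn cTEC pool had Hist1h1b at 23.8 CPM against 6.09 in the adult one, Hist1h1a at 14.9 against 4.15, Hist1h2bc at 16.3 against 59.5 and Hist1h1c at 42.1 against 68.3 CPM. In non-cycling cells Hist1h1b was at 2.07 against 0.370 CPM and Hist1h2bc at 15.8 against 57.1 CPM.

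No histone gene passed the test between Aire-KO and WT cells. In mTEChi 0 of 61 were called higher and 0 lower by edgeR (background 0% and 0%) and by the DESeq2 Wald test (0.130% and 1.81%). The median log2 fold was 0.01 against -0.16 for all genes. Hist4h4 was at 22.4 CPM in Aire-KO mTEChi, above the 7.71 to 15.8 CPM of the WT pools (log2 1.16, SE 0.54, adjusted p = 0.925, edgeR), as were Hist1h1d (25.5 against 6.56 to 21.5 CPM, 1.06) and Hist1h1c (82.9 against 42.5 to 66.3 CPM, 0.66). Hist1h1b (3.35 CPM, log2 -1.11), Hist1h1a (3.96 CPM, -0.49) and Hist2h2be (12.1 CPM, -0.27) had the most negative folds of the genes at 5 CPM or more in either group, and the first 2 lay within the WT range. With batches as units Hist4h4 (log2 1.35, adjusted p = 0.0164, edgeR) and Hist1h4m were higher (background 1.11%); Hist1h4m, named only for this call, was at 0.201 CPM against at most 0.00853 CPM in the WT pools.

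The non-cycling cells of Aire-KO mTEChi had a histone share of 0.0264%, above the 0.0176% to 0.0196% of the WT pools, but its 4 batches ran from 0.0200% to 0.0347%. In these cells 47 of 56 genes had a fold above 0 (median log2 0.52, -0.10 over all genes) and none was called. All 9 S cells of this pool lay in 1 batch.

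In Aire-KO mTEClo 0 of 61 genes were called higher and 0 lower (background 0% and 0%, edgeR). The DESeq2 Wald test called 1 higher, the H3 gene Hist1h3d, at 1.95 CPM against 0.417 to 0.490 CPM (background 0.24%). The median log2 fold was 0.56 against 0.00 for all genes. Hist4h4 stood above the WT pools here too, at 37.6 CPM against 8.46 to 17.9 CPM (log2 1.70, SE 0.55, unadjusted p = 0.0142, adjusted p = 1, edgeR). Hist1h1d (23.5 against 3.34 to 15.5 CPM, 1.484) and Hist2h3c2 (7.13 against 1.41 to 3.92 CPM, 1.477) were also above all WT pools. Hist1h4d (11.99 CPM, log2 -0.66), Hist1h1c (55.4 CPM, -0.40) and Hist1h2bc (26.9 CPM, -0.15) lay within the WT range.

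Across these comparisons, none of the 24 supply genes and none of the 11 histone genes taken as replication-independent was called, apart from Asf1b, which was higher in mTEChi than in mTEClo. Of the 52 G2/M genes, 25 were higher and 1 lower in that comparison, and of the 40 S genes 5 were higher and 2 lower, beside 7.54% and 4.13% of all genes. In the other 4 comparisons 0 genes of these lists were called, but neither was any other gene, so these zeros say nothing about the lists.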

How the data were processed

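Per the labels and the study's methods, the authors trimmed reads with fastp 0.20.0, aligned them to mm10 with STAR 2.7.3a and Ensembl GRCm38 genes, removed alignments of mapping quality under 5 (SAMtools 1.9) and duplicates (Picard 2.21.1), and counted reads per gene with htseq-count 0.11.2 without strand. The deposited raw counts were used; the deposited normalized matrix was not. How 2 runs of the same cell (168 cells) were combined is not given in the sources used here. Without strand, antisense reads cannot be told apart. Kept cells had over 200000 reads and 8000 genes.

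Counts were summed per mouse pool and tested over the 11 mTEC pools with edgeR 4.0.16 (filterByExpr, TMM, quasi-likelihood, Benjamini-Hochberg) in R 4.3.3. A group of 1 pool is assumed to vary like the others, and p-values measure only the spread between these pools. DESeq2 1.42.0, experimental batches as units, other normalization, no filter, non-cycling cells and leaving out pools were alternatives. Counts were also simulated with a single fixed spread for all genes. A change counted as recovered at an adjusted p under 0.05 in the right direction, without the 2-fold cut. Recovery was 59.5% to 78.5% of 4-fold and 0.5% to 34% of 2-fold changes. In the real data a far larger difference did not pass (Hist1h1b, log2 7.48, newborn against adult WT mTEClo). The simulated rates therefore do not carry over to the real genes, and a count of 0 calls does not show absence of change. Group shares were compared by exact permutation in Python 3.11.15.

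Named genes were the 4 highest per class per length, the 3 largest folds each way per comparison at 5 CPM or more, the 5 highest and 5 lowest S ratios, and the lists' members. Members and lists were chosen with earlier results of these data known. Cells with both scores over the cut, tuft-like cells, the bins of high S score, the floor on non-cycling cells and the thymocyte limit were chosen after seeing the data. Uniqueness and stem-loops were searched in GENCODE M21 transcripts, not a genome. Depth limits the low genes: 10 of the 65 had under 100 reads.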

Additional observations from a re-analysis of the deposited data

Results flagged for a closer look

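Of 48 sets of 4 to 6 pools or batches examined for 1 value far from the rest, 7 had one. Chance gives about 1 in 20 in independent sets, but 24 of these sets were histone genes in the same 4 pools. The 7 are therefore not read as an excess over chance. In the 4 experimental batches of Aire-KO mTEChi, batch 14 had 10.7% S cells against 0 in the others, and 14.3% of its cells had both scores over the cut against 0 to 2.33%. The 5-week adult WT mTEChi pool, with 12 cells of which 1 was cycling, stood apart from the other 3 adult WT mTEChi pools in 5 of 24 named genes. Hist1h1a was at 18.6 CPM there (1.07 to 3.83 in the others) and Hist1h2ab at 8.39 CPM (0.433 to 1.43). Hist1h2bj was at 6.13 CPM (1.896 to 2.51), Hist1h2bm at 4.38 CPM (0.431 to 1.10) and Hist1h3a at 4.26 CPM (0.675 to 1.13).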

How the results depend on the processing

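Of 98 alternative values, 75 kept their direction and call or stayed close to the reported value, 21 moved and 2 reversed. The median S ratio of 2.27 was 4.34 in cells with both scores over the cut and 1.68 to 2.34 when each pool was left out. The 2 genes at 2-fold or more in S cells of every pool were 1 with a z cut of 2, 1 with the floor on non-cycling cells only, 6 with 0.1 CPM added in place of 1, 30 in cells with both scores over the cut, and 2 to 6 when each pool was left out (6 without Aire-KO mTEChi, 4 without WT mTEChi of 4-week males). The difference in histone share between adult mTEChi and mTEClo ran from -0.00819 to 0.00102 when each pool was left out, and reversed without the 4-week (0.00102) or 5-week (0.000924) mTEClo pool; that in S cells ran from 0.526 to 3.30 percentage points. Calls among the histone genes were 2 with batches as units for Aire-KO mTEChi, 1 with DESeq2 for Aire-KO mTEClo, 2 with batches for newborn mTEChi, and 18 with DESeq2 and 38 with batches for newborn mTEClo, each against 0, and leaving out a pool gave 0 in all 4. For adult mTEChi against mTEClo the 5 calls were 23 with DESeq2, 29 with batches, 0 in non-cycling cells and 0 to 5 when each pool was left out. Batches of 1 pool may share animals and are not shown to be separate samples; the cause of the other shifts was not tested. No paired analysis was possible because the labels' numbers count cells within a group and pair no samples across groups, and the groups compared share no experimental batch.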
